A study of Homo sapiens with 3 samples.

Results

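The gene-dense short arm of chromosome 19 was described through the places where Spindlin1 and C11orf84 were detected on it. The members are all peaks whose summit lies in chr19:1-19500000 of the human genome build hg19. The arm below means this stretch, whose inner end was set by the rule and not by the centromere. They were chosen by position alone, but the stretch itself was proposed because peaks were known from these lists to be dense there and rich in C11orf84, so its peak number and its C11orf84 part are given as a description with no test. The rule took 3260 of 153378 Spindlin1 peaks and 4474 of 177557 C11orf84 peaks, or 7734 of 330935 peaks on chromosomes 1 to 22 and X. Zinc finger genes are known to lie on this arm too, and the rule does not remove them.

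U2OS, a human osteosarcoma cell line, was the source of all 3 samples. Untreated cells were crosslinked with formaldehyde, and the DNA bound by Spindlin1 or by C11orf84 was pulled down with an antibody and sequenced (ChIP-seq), beside an Input without antibody that has no peak list here. Each antibody had 1 library, so differences below could not be checked against replicates and carry no p-value. Intervals are exact Clopper-Pearson 95% intervals of a share, and they cover counting error only.

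Spindlin1 is a reader protein whose Tudor-like domains bind methylated tails of histone H3, among them the trimethylated form found at active promoters. C11orf84, also named SPINDOC, is a known binding partner of Spindlin1. Chromosome 19 is known as the most gene-dense human chromosome, and its short arm carries genes such as DNMT1, the maintenance DNA methyltransferase, SMARCA4, an ATPase of chromatin remodelling complexes, and STK11, a tumour suppressor kinase. No gene model of hg19 was used here, so peaks are given by position and none is assigned to a gene. No sequence is printed, as no genome of that build was used.

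Peaks of both proteins were crowded on the short arm. Spindlin1 had 167 peaks per Mb and C11orf84 had 229, against 52.1 and 60.4 over chromosomes 1 to 22 and X, which is 3.21 and 3.80 times as many. The arm made up 0.663% of the length and held 2.13% of all Spindlin1 and 2.52% of all C11orf84 peaks. The rest of chromosome 19 had 85.1 and 110 peaks per Mb. Among dense chromosomes, chromosome 17 had 138 and 156 and chromosome 22 had 245 and 276. Neighbouring summits of the same list lay a median of 2111 bp apart for Spindlin1 and 1521 bp apart for C11orf84.

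The outer 8 Mb of the arm were more crowded than the part further in. The 5 Mb at the tip had 243 Spindlin1 and 352 C11orf84 peaks per Mb. The stretch from 5 to 8 Mb had 278 and 333, and the 11.5 Mb from 8 Mb to the inner end had 105 and 149. Counted in windows of 1 Mb, Spindlin1 ranged from 25 to 415 peaks with a median of 136, and C11orf84 from 32 to 508 with a median of 193 (19 full windows). All 19 full windows lay above the genome median of 35 peaks of both lists, and 4 were among the densest 5% of 2805 windows of the genome. The 2 lists rose and fell together along the arm, with Pearson's r at 0.98 and Spearman's rho at 0.99 over the 19 windows, which share the cell line and base composition.

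**Figure D1:**
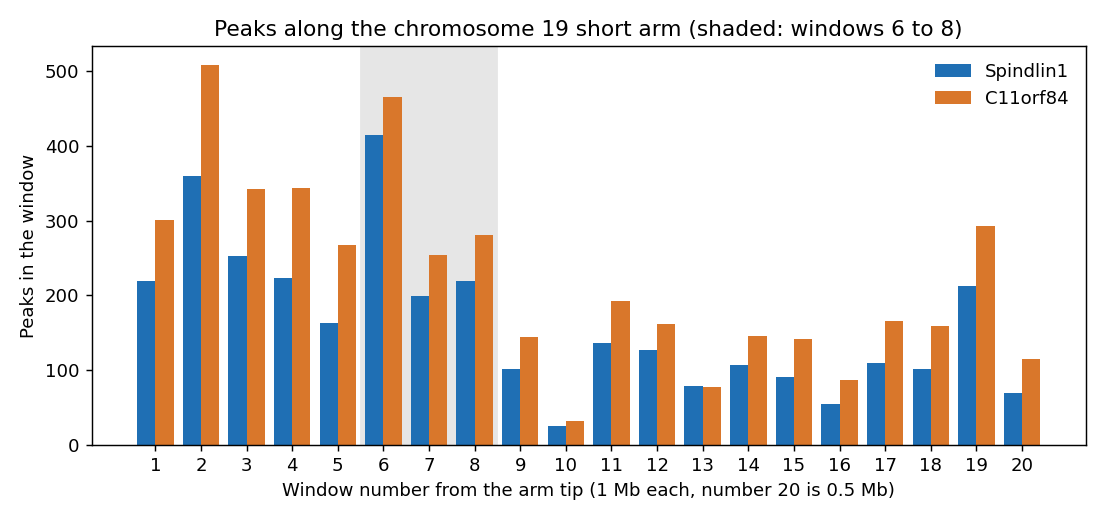
Number of Spindlin1 (blue) and C11orf84 (orange) peaks in consecutive windows of 1 Mb from the tip of the chromosome 19 short arm, 1 library each; window 20 is 0.5 Mb long and windows 6 to 8 are shaded. Window 6 holds 415 and 465 peaks, window 2 holds 360 and 508, and window 10 holds 25 and 32.

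By the sum of both lists the densest window was that from 5 to 6 Mb with 880 peaks, of which Spindlin1 had 415 and C11orf84 had 465. It was followed closely by 1 to 2 Mb, with 868 in all, 360 of Spindlin1 and 508 of C11orf84, which was the highest number for C11orf84. Next was 2 to 3 Mb with 252 and 342. The emptiest was at 9 to 10 Mb, with 25 and 32, then 15 to 16 Mb with 54 and 86 and 12 to 13 Mb with 78 and 77. Crowding was thus not uniform within the arm, although even the emptiest full window lay above the genome median. Of the bins of 100 kb along the arm, 7 held no peak of either list. The longest distance between successive summits of either list was 193 kb, from 14897256 to 15090231, and the next was 140 kb, from 9280626 to 9420305.

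C11orf84 supplied a larger part of the peaks here than over the genome. It held 57.8% (56.7 to 59.0) of the peaks of both lists on the arm, 56.5% (55.4 to 57.6) on the rest of chromosome 19 and 53.7% over chromosomes 1 to 22 and X. Chromosomes 17 and 22, also dense in peaks, stood at 52.9% and 53.0%. Other chromosomes had high parts too. Chromosome X, with 761 Spindlin1 and 1042 C11orf84 peaks, had nearly the same part as the arm. Chromosome 21, with 1448 and 1858, also lay above the genome. A high part was thus not particular to the arm. C11orf84 outnumbered Spindlin1 in 18 of 19 full windows and in 153 bins of 100 kb, with fewer in 24 and equal numbers in 11. Of 1148 windows of the genome outside the arm with at least 50 peaks, 20.4% had a part at least as high as that of the arm. The highest parts were 62.5% (55.1 to 69.5) in the last 0.5 Mb, 62.1% (57.3 to 66.7) at 4 to 5 Mb and 61.4% (52.8 to 69.5) at 15 to 16 Mb. The lowest were 49.7% (41.6 to 57.8) at 12 to 13 Mb, 52.8% (49.5 to 56.2) at 5 to 6 Mb and 55.9% at 11 to 12 Mb.

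Overlap is mutual, so the overlapping peaks of both lists are close in number in any region, here 2059 for Spindlin1 and 1995 for C11orf84, and a surplus must appear among the others. Peaks without overlap numbered 1201 and 2479, a part of 67.4% (65.8 to 68.9) against 61.8%. By bases covered the part was 60.5% against 56.3%, from 0.915 Mb of Spindlin1 and 1.40 Mb of C11orf84 intervals. Clusters formed by joining peaks of either list at most 500 bp apart gave 1636 with both proteins, 1313 with C11orf84 alone and 648 with Spindlin1 alone. C11orf84 alone made up 36.5% of these clusters, against 31.1% over the genome.

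When the C11orf84 list was reduced to the 153378 peaks of highest −log10 q, so that both lists were equally long, 3494 of them lay on the arm and its part there was 51.7%, against an even 50% over the genome. At a −log10 q of at least 10 it was 66.4% (61.2 to 71.3) against 60.7%. These were 118 Spindlin1 and 233 C11orf84 peaks, few of those on the arm. With all peaks counted, the C11orf84 part was 57.8% on the arm against 53.7% over the genome, a larger excess than with lists of equal length. Only C11orf84 peaks of lowest −log10 q were cut to reach equal length. The median −log10 q of C11orf84 peaks was 5.55 on the arm and 6.46 over the genome. What this adds to the smaller excess was not tested. The part of the arm was above that of the genome in all 3 counts. These counts draw on the same peaks, and the arm was proposed for its richness in C11orf84. Their common direction is therefore a description and not separate evidence.

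Peaks on the arm were shallow. The number of fragments over a summit, called its depth, was recovered from the authors' fold and p-value, and had a median of 10 for both proteins on the arm (interquartile range 9 to 12 for both). Over chromosomes 1 to 22 and X the medians were 11 for Spindlin1 and 12 for C11orf84. Only 21 Spindlin1 and 34 C11orf84 peaks of the arm reached 20 fragments, and the deepest had 26 and 25. The limit of 10 in −log10 q was met by 3.62% of Spindlin1 (3.01 to 4.32) and 5.21% of C11orf84 peaks (4.58 to 5.90), against 11.8% and 15.7% of the whole lists. Per Mb, these strong peaks were no denser for Spindlin1 than over the genome, at 6.05 against 6.14, and for C11orf84 they were at 11.9 against 9.48. The crowding of the arm was thus mainly one of weak peaks.

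The local background under these peaks was low. Each list has a lowest background, here the floor, of 0.949 fragments (Spindlin1) or 1.04 (C11orf84). On the arm, 76.1% of Spindlin1 and 75.6% of C11orf84 peaks stood at it, against 48.2% and 49.3% of all peaks. A raised background of at least 2 times the floor was found at 2.67% and 2.77%, against 9.07% and 9.19%. Sharing among peaks at the floor alone is given below, and the part of the lower background in the density of the arm was not tested.

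Peaks were narrow, as in the rest of the genome. The median width was 232.5 bp for Spindlin1 (interquartile range 183 to 328) and 252 bp for C11orf84 (196 to 367), against 229 and 248 bp over the genome. Wide peaks were scarcer than over the genome: 12 Spindlin1 (0.368%) and 41 C11orf84 peaks (0.916%) reached 1 kb, against 1.48% and 2.42% of all peaks. The rest of chromosome 19 had lower shares than the arm, at 0.269% and 0.507%, so scarce wide peaks were not particular to it. A width of 2 kb was reached by 0 of 3260 Spindlin1 peaks and by 1 C11orf84 peak. At equal depth the arm's peaks were mostly wider than elsewhere. Among those of 12 to 14 fragments the median was 278.5 bp for Spindlin1 and 305 bp for C11orf84, against 241 and 255 bp outside the arm.

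Fewer peaks were shared on the arm than over the genome. Of the Spindlin1 peaks, 2059 (63.2%, 61.5 to 64.8) overlapped a C11orf84 peak by at least 1 bp, against 69.7% of all Spindlin1 peaks. In the other direction, 1995 C11orf84 peaks (44.6%, 43.1 to 46.1) met one of Spindlin1, against 57.6%. The rest of chromosome 19 was near the arm, at 61.9% (60.3 to 63.6) for Spindlin1 and 47.0% (45.5 to 48.5) for C11orf84. Low sharing was thus not particular to the arm. Chromosomes 17 and 22, also dense in peaks, had 75.4% and 78.2% for Spindlin1 and 63.2% and 66.3% for C11orf84. Even so, few peaks were far from the other protein: 116 Spindlin1 peaks (3.56%) and 326 C11orf84 peaks (7.29%) had no peak of the other list within 5 kb, against 8.36% and 10.9%. The median gap from an unshared peak to the other list was 726 bp for Spindlin1 and 1008 bp for C11orf84, against 1178 and 1252 bp over the genome.

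Sharing rose with depth on the arm up to 19 fragments. Spindlin1 peaks under 10 fragments were shared in 55.5% (52.7 to 58.2) of cases, those of 12 to 14 in 74.2% (70.6 to 77.6) and those of 15 to 19 in 83.2% (76.9 to 88.4). Outside the arm the shares in those classes were 54.7%, 74.4% and 84.3%. For C11orf84 they were 34.0% (31.7 to 36.4), 54.2% and 71.3% (65.9 to 76.3), against 38.3%, 60.6% and 74.3%. At 20 or more fragments, 76.2% (52.8 to 91.8) of 21 Spindlin1 and 79.4% (62.1 to 91.3) of 34 C11orf84 peaks were shared, against 93.5% and 89.6% outside the arm. When shares from outside the arm were weighted by the depths found on it, they came to 63.1% for Spindlin1, and 63.2% was observed. For C11orf84 they came to 48.9%, and 44.6% was observed, a gap of -4.3 points. The lower share of Spindlin1 thus equalled that of peaks of the same depth elsewhere, and that of C11orf84 lay below it. The arm had 1.37 C11orf84 peaks per Spindlin1 peak, against 1.15 outside it. Since overlap is mutual, a lower C11orf84 share goes with that surplus, which depth weighting does not remove. It is therefore not a result separate from the high C11orf84 part. Among peaks at the floor alone, the gaps were -2.3 and -5.3 points, so for Spindlin1 the near equality held only when peaks above the floor were counted too. It also ended when 50% of each peak had to be covered, at -5.4 points for Spindlin1 and -8.1 for C11orf84.

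The stretch from 5 to 8 Mb stood apart from the rest of the arm. It was picked after its values had been seen, and its figures are a description. Spindlin1 peaks there were shared in 79.2% (76.3 to 81.9) of cases, against 58.8% (56.0 to 61.6) in the 5 Mb at the tip and 56.4% (53.6 to 59.3) from 8 Mb inward. For C11orf84 the shares were 61.2% (58.1 to 64.2), 40.2% (37.9 to 42.6) and 39.4% (37.0 to 41.7). Each of its 3 windows was above each of the other 17: Spindlin1 shares were 78.3%, 84.9% and 75.8%, and the highest elsewhere was 63.2%. The C11orf84 shares were 63.0%, 65% and 54.8%, and the highest elsewhere was 50.6%. Over the arm without this stretch, 57.6% of Spindlin1 and 39.8% of C11orf84 peaks were shared.

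**Figure D2:**
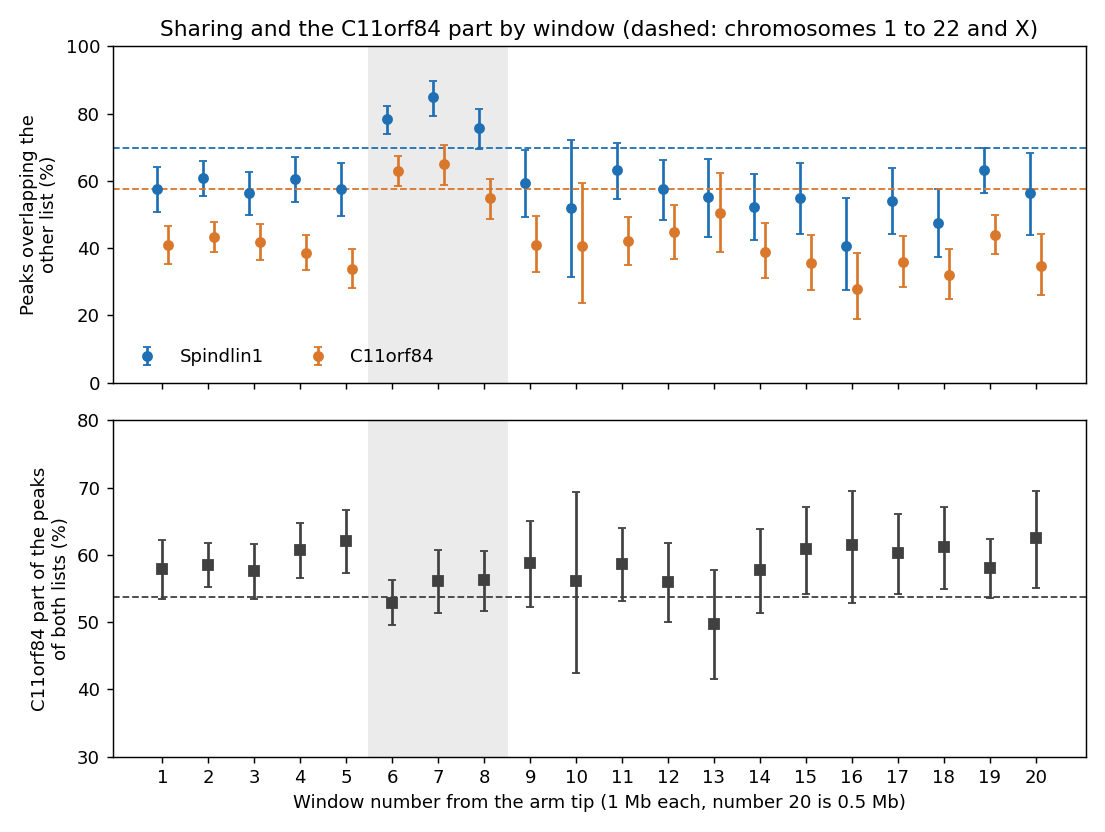
Upper panel, percent of Spindlin1 (blue) and C11orf84 (orange) peaks that overlap a peak of the other list in each 1 Mb window from the arm tip; lower panel, C11orf84 peaks as a percent of the peaks of both lists. Bars are exact 95% intervals (counting error only), dashed lines are the values over chromosomes 1 to 22 and X, and the shaded windows 6 to 8 have Spindlin1 shares of 75.8% to 84.9% while the others reach at most 63.2%.

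The tip was crowded as well. C11orf84 intervals covered 12.2% of the sequence from 5 to 8 Mb and 10.9% of the outermost 5 Mb, and Spindlin1 intervals covered 9.09% and 6.61%. Summits of the same list were closer together in the stretch. Their median spacing was 1199 bp for Spindlin1 and 1152 bp for C11orf84, against 2095.5 and 1418 bp at the tip. What this spacing adds to the shares was not tested. Depth differed somewhat. The mean number of fragments over a summit was 11.2 for Spindlin1 and 11.8 for C11orf84 in the stretch, against 9.96 and 10.3 at the tip. Mean background was 1.14 times the floor for both proteins, against 1.08 and 1.07 at the tip.

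At matched depth, and with 1 bp of overlap as the rule, the stretch was above the genome and the rest of the arm below it. Spindlin1 peaks of 10 to 11 fragments were shared in 78.6% (73.4 to 83.3) from 5 to 8 Mb, 57.3% (53.9 to 60.7) in the rest of the arm and 64.2% outside the arm. C11orf84 peaks of that depth were shared in 56.6% (50.9 to 62.1), 39.7% (37.0 to 42.5) and 47.5%. Weighted by depth, the stretch exceeded the genome by 12.7 points for Spindlin1 and 7.4 for C11orf84, and the rest of the arm differed by -4.3 and -7.6 points. Among peaks at the floor alone these gaps were 12.2 and 8.6 points, and -7.2 and -8.8 points. The direction for the stretch depended on the rule of overlap. With summits at most 200 bp apart, the stretch exceeded the genome at matched depth by 4.4 points for Spindlin1 and 2.6 for C11orf84. With 50% of each peak covered it lay at -1.1 and -2.1 points, so that the stretch was no longer above the genome. The rest of the arm was below the genome under both rules, at -3.0 and -7.4 points and at -6.8 and -9.8 points. When both lists were limited to peaks reaching 10 in −log10 q, 34.4% and 19.1% were shared in the stretch, against 49.0% and 30.9% over the genome. Classes of 20 or more fragments held only 11 and 23 peaks in the stretch and 10 and 11 in the rest, too few to rank.

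**Figure D3:**
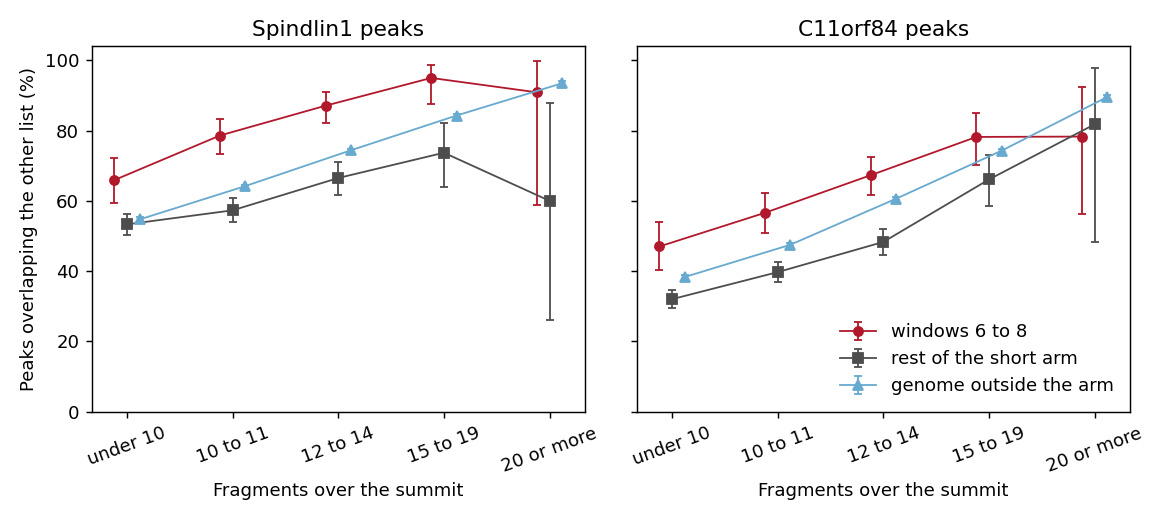
Percent of peaks overlapping the other list by number of fragments over the summit, for Spindlin1 (left) and C11orf84 (right), in windows 6 to 8 (5 to 8 Mb, red), in the rest of the short arm (grey) and in the genome outside the arm (blue); bars are exact 95% intervals. At 10 to 11 fragments the Spindlin1 values are 78.6%, 57.3% and 64.2%, and the intervals widen at 20 or more fragments, where each part of the arm has at most 23 peaks.

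Much of what was strong or wide on the arm came from this stretch, which is 15.4% of its length. It held 25.6% of the Spindlin1 and 22.4% of the C11orf84 peaks. Of those with a −log10 q of at least 10 it held 61 of 118 (51.7%) and 115 of 233 (49.4%), and of those at least 1 kb wide 10 of 12 and 29 of 41. Peaks overlapping 2 or more peaks of the other list numbered 127 Spindlin1 (3.90%, against 4.19% of all) and 173 C11orf84 (3.87%, against 5.56%) on the arm, of which 63 and 96 lay here. C11orf84 supplied 54.6% (52.2 to 56.9) of the peaks in the stretch and 58.9% (57.6 to 60.1) of those in the rest of the arm.

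Its outer edge was abrupt and was formed by a crowded block of 140 kb. From 5020001 to 5160000 there were 141 Spindlin1 and 144 C11orf84 peaks, which covered 39.2% and 47.8% of the sequence. The 140 kb before it held 16 and 29 peaks, and the 140 kb after it 45 and 55. In the block 87.2% (80.6 to 92.3) of Spindlin1 and 108 of the 144 C11orf84 peaks were shared, and C11orf84 made up 50.5% (44.6 to 56.5). An overlap of 1 bp is easier to meet where intervals cover so much of the sequence. What the crowding adds to these shares was not tested. Its peaks were not deep, at medians of 11 and 12 fragments, but 16 and 25 of them reached a −log10 q of 10, and 85.1% and 79.2% stood at the floor. Mean background was 1.04 and 1.05 times the floor in the block and 1.11 and 1.03 in the 140 kb before it.

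**Figure D4:**
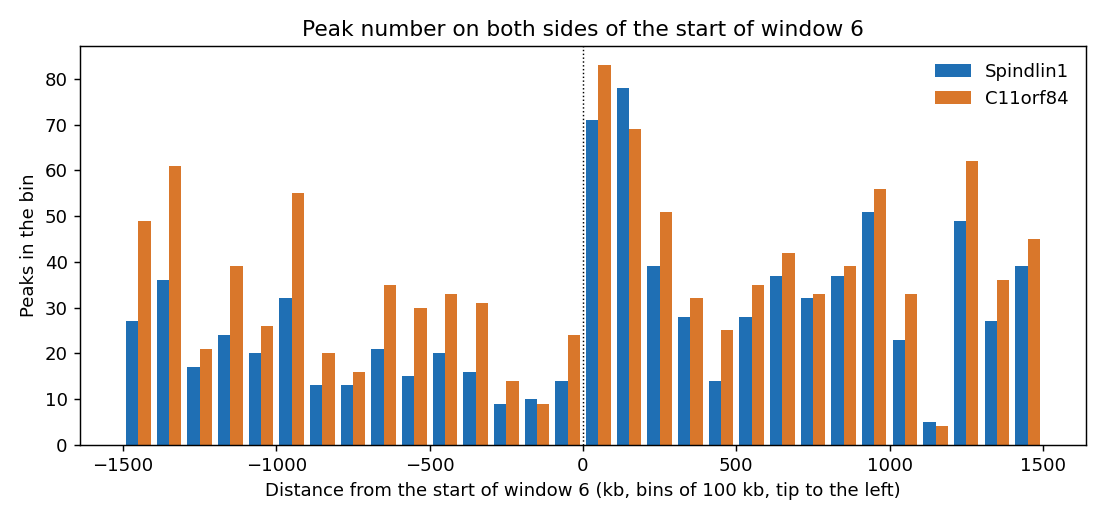
Number of Spindlin1 (blue) and C11orf84 (orange) peaks in bins of 100 kb by distance from the start of window 6 in kb, with the arm tip to the left. The bin just before the start has 14 and 24 peaks, and the first after it have 71 and 83, then 78 and 69.

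Runs of peaks at most 500 bp apart were longest in the same block. The longest, from 5122788 to 5139265 (16478 bp), joined 24 Spindlin1 and 19 C11orf84 peaks, and the next, from 5139790 to 5153960, joined 18 and 18. Others lay at 6210681 to 6222312 (15 and 16 peaks) and 5690093 to 5699569 (13 and 13). Of 38 runs of at least 10 peaks on the arm, 27 lay between 5 and 8 Mb. The inner edge of the stretch was less sharp: the bin at 7.9 to 8.0 Mb had 63 and 77 peaks, that at 8.0 to 8.1 Mb had 31 and 43 with 77.4% of Spindlin1 peaks shared, and that at 8.1 to 8.2 Mb had 13 and 19 with 30.8% shared.

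Where the 2 proteins overlapped, C11orf84 peaks more often held more fragments, counted without scaling between the libraries. The floors differed, at 0.949 fragments for Spindlin1 and 1.04 for C11orf84, and total read numbers are unknown. The pairs of the arm differed by a median of 0.5 fragments. A difference between the libraries cannot be told apart from one between the proteins. In 1612 pairs on the arm that overlapped each other and nothing else, C11orf84 was deeper in 806 (50%), Spindlin1 in 570 (35.4%), and 236 were equal. Outside the arm C11orf84 was deeper in 53.9% and Spindlin1 in 33.6% of pairs. C11orf84 intervals were the wider in 62.0% of the arm's pairs, by a median of 27 bp over all pairs. The shortest intervals of the lists differed too, at 172 bp for Spindlin1 and 180 bp for C11orf84. The median distance from the summit of a shared Spindlin1 peak to the closest C11orf84 summit was 85 bp, against 58 bp over the genome. With summits at most 200 bp apart as the rule, 48.9% of Spindlin1 and 35.6% of C11orf84 peaks were shared. When the overlap had to cover 50% of each peak, 34.7% and 25.3% were shared, against 47.5% and 41.1% over the genome.

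Fold here is the authors' own enrichment of a summit over its local background. For Spindlin1 the highest was 12.3 at 1383356 to 1384116, with 23 fragments at the floor, rank 172 of the whole list. C11orf84 had 2 peaks across it, the stronger with a fold of 9.33 at 18 fragments. The second, at 2474621 to 2475005, had a fold of 11.5, and the C11orf84 peak there (2474653 to 2475264, fold 10.8) was also among the 5 highest of its own list on the arm. No other peak of these 5 overlapped one of the other 5. Spindlin1 peaks at 5046899 to 5047203 (fold 11.3), 7917809 to 7918765 and 13991026 to 13991434 (both 10.8) followed. C11orf84 overlapped all 3, at folds of 5.89, 8.84 and 8.45.

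For C11orf84 the highest fold was 11.3, reached by 3 peaks of 22 fragments at the floor. The one at 267030 to 267643 is the first peak of the arm in either list, 12503 bp from any Spindlin1 peak. That at 5829046 to 5829755 overlapped 2 Spindlin1 peaks, the stronger with a fold of 6.72 at 13 fragments. That at 5922984 to 5923316 had no overlap, with a Spindlin1 peak 140 bp away. A peak at 5070482 to 5070987 (fold 10.8, 21 fragments) overlapped a Spindlin1 peak of fold 5.76 at 11 fragments. The overlapping peaks of the other list were in most cases above the upper quartile of its folds on the arm, which was 6.16 for Spindlin1 and 5.93 for C11orf84, and the exceptions had folds of 5.89 and 5.76.

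Peaks far from the other protein were more often of C11orf84. Beside the first peak of the arm, the highest C11orf84 folds more than 5 kb from Spindlin1 were 9.45 at 5529583 to 5529771 (20 fragments), 8.35 at 4622070 to 4622273 and at 5969607 to 5969807 (16 fragments each) and 7.85 at 7150366 to 7150735 (15 fragments). For Spindlin1 the highest was 8.0 at 10362669 to 10362987, with 20 fragments on a background of 1.71 times the floor. It was followed by 4 peaks with a fold of 7.18 at 13 fragments, at 3707976 to 3708476, 8842013 to 8842184, 9476918 to 9477220 and 16997228 to 16997427. C11orf84 made up 73.8% (69.4 to 77.8) of the 442 peaks of either list this far from the other, against 60.1% over the genome. These peaks are among those without overlap, where the C11orf84 surplus of the arm must appear. Their part is thus not a result separate from that surplus. A peak missing from one list is a missing call at its depth, and absence of the protein was not measured.

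The widest peaks lay between 5 and 8 Mb in both lists. For Spindlin1 they were at 6219785 to 6221276 (1492 bp), 5290105 to 5291476 (1372 bp) and 5133327 to 5134679 (1353 bp). They overlapped 2, 2 and 3 C11orf84 peaks. For C11orf84 they were at 6413877 to 6415882 (2006 bp), 7592251 to 7594094 (1844 bp) and 5112330 to 5114169 (1840 bp), and overlapped 4, 3 and 3 Spindlin1 peaks. All 6 stood at the floor, at 13 to 18 fragments.

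At the inner end of the rule, the last Spindlin1 peaks inside had folds of 4.19 (19496372 to 19496544) and 5.88 (19496612 to 19496946), and the first outside had 5.05 (19516154 to 19516639) and 6.67 (19517190 to 19517402). The last C11orf84 peaks inside had folds of 5.40 (19467946 to 19468125) and 4.29 (19496373 to 19496624), and the first outside had 6.10 (19517305 to 19517486) and 4.91 (19528726 to 19528905).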

How the data were processed

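The submitters' processing notes name Bowtie 1.2.2 and hg19. How peaks were called, at which threshold and against which control is not stated in the labels or files. Each deposited list belongs to 1 library. In it the authors give a fold enrichment (a ratio), a −log10 p and a −log10 q of the summit, and a score, equal in 100% of peaks to 10 times the −log10 q cut to a whole number and not used. Positions are printed counting from 1.

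Chromosomes 1 to 22 and X entered the comparisons. Summit depth k was solved from each peak's fold, read as (k + 1)/(λ + 1) for a local background λ, and its p, read as the upper Poisson tail beyond k. A whole k met both in 100% of peaks within 0.001 in −log10 p, and 16 Spindlin1 peaks allowed a second k. A peak stood at the floor when its background was within 0.1% of the lowest. Where this background comes from is not stated. Total read numbers are unknown. Densities used the length from first to last peak of each chromosome, and 19.5 Mb for the arm. Depth weighting used each number of fragments, with 25 or more as 1 class. Calculations ran in Python 3.11.15 with SciPy 1.17.1 for intervals, NumPy 2.4.6, pandas 2.3.3, and matplotlib 3.10.9 for plots. Depth recovery and overlap were tested on simulated data.

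The members, regions and alternatives were chosen with earlier results of these data known. Regions named are, in each list, the 5 of highest fold, the 5 of highest fold more than 5 kb from the other list and the 3 widest, and the 3 densest and emptiest windows and those of highest and lowest C11orf84 part. The stretch from 5 to 8 Mb, its 140 kb block and the depth weighting were added after the data were seen. Occupancy of gene promoters was planned and not done, since no hg19 annotation was used here.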

Additional observations from a re-analysis of the deposited data

How the results depend on the processing

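Of 48 alternatives, 16 stayed within the 95% counting interval of the reported value and 32 left it. Shares on the arm for Spindlin1 and C11orf84 were 34.7% and 25.3% with 50% of both intervals covered, 48.9% and 35.6% with summits at most 200 bp apart, 28.8% and 15% among peaks that reach a −log10 q of 10 (49.0% and 30.9% over the genome), 53.5% and 38.2% with peaks at the floor only, and 57.6% and 39.8% without the stretch from 5 to 8 Mb. In that stretch the same settings, apart from the last, gave 42.9% and 35.7%, 57.0% and 47.3%, 34.4% and 19.1%, and 68.2% and 55.8%, each above the value for the whole arm. Against the genome the direction turned: the stretch was below it with 50% of both intervals covered (47.5% and 41.1% over the genome) and among peaks that reach a −log10 q of 10, and C11orf84 was about equal with summits at most 200 bp apart (47.5%). Density was 6.05 and 11.9 peaks per Mb at that limit, 153 and 209 without the outermost 2 Mb, and 147 and 211 without the stretch. Median width was 353 and 402 bp at that −log10 q, and 225 bp for Spindlin1 without the stretch. The C11orf84 part was 66.4% at that −log10 q, 60.5% by bases, 51.7% at equal list length and 56.4% by clusters. The densest window had 880 peaks of both lists per Mb at 1 Mb and 980 at 500 kb, at 5.0 to 5.5 Mb. The settings without the stretch, with peaks at the floor only, and the stricter rules of overlap at matched depth were chosen after seeing the data. Fewer peaks enter the settings limited by −log10 q, background or position by construction. The stricter rules of overlap keep all peaks and change only which of them count as shared. The cause of the other shifts was not tested. Promoter distances were not run. No paired analysis was possible because each antibody had 1 library. Most calls rest on about 10 fragments, which limits every share given.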

Other observations

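Peaks of chromosome 19 were also set against its number of genes. RefSeq (GRCh38.p14, used for gene names only) lists 1451 protein-coding genes on chromosome 19, of which 250 have a symbol that starts with ZNF and a digit, out of 517 such genes on chromosomes 1 to 22 and X. The whole chromosome, both arms included, had 4.55 Spindlin1 and 6.08 C11orf84 peaks per protein-coding gene, against 7.68 and 8.89 over the 23 chromosomes. Ranked from the lowest, that is place 2 for Spindlin1 and place 3 for C11orf84. So chromosome 19 was dense in peaks per Mb and sparse in peaks per gene. Which genes the peaks lie at was not tested.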
